A study of Homo sapiens with 6 samples.

Results

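The replication-dependent histone genes were examined in SKNMC cells that carried an empty vector or a vector for 1 of 2 forms of the transcription factor NFIB. They were taken as every gene whose symbol in the count table starts with HIST1H, HIST2H, HIST3H or HIST4H, which gave 64 of the 22604 genes in the table. SKNMC is a Ewing sarcoma cell line driven by the fusion protein EWS-FLI1. RNA-seq was done on 3 groups of 2 libraries each: cells with the empty vector (EV), cells with V5-tagged wild-type NFIB (NFIB WT), and cells with V5-tagged NFIB from which the intrinsically disordered region had been removed (NFIB ΔIDR). All 3 groups were the same cell line, infected with lentivirus, selected with puromycin and otherwise untreated, so NFIB was placed in cells that already express the endogenous gene. The study calls the libraries of a group biological duplicates, but the labels do not say how the cultures were kept apart, and the p values below measure the spread between these libraries.

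Replication-dependent histone genes supply the proteins that package new DNA: H2A, H2B, H3 and H4 form the core of the nucleosome, and H1 binds the linker DNA between nucleosomes. Their transcripts accumulate in S phase and, unlike other messenger RNAs, end in a short stem-loop in place of a poly(A) tail. The stem-loop is bound by SLBP, and the U7 small nuclear ribonucleoprotein helps cut the transcript just downstream. The genes lie in clusters, where H2A and H2B genes often sit head to head on a shared promoter region. NPAT, a target of cyclin E with CDK2, drives their transcription at the start of S phase. The libraries were made from total RNA, so transcripts without a poly(A) tail were included. In bulk RNA, a change in the share of cells in S phase and a change in histone RNA per S phase cell cannot be told apart.

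The 64 genes comprised 6 H1, 16 H2A, 20 H2B, 11 H3 and 11 H4 genes. By symbol, 53 of them belonged to the HIST1 cluster on chromosome 6, 7 to HIST2 and 3 to HIST3 on chromosome 1, and HIST4H4 stood alone on chromosome 12. HIST2H2BA (chr1:120906101-120916112) lay far from the other HIST2 genes, such as HIST2H2AC (chr1:149858468-149858961). HIST2H2BC and HIST1H2APS1 are annotated as pseudogenes and HIST2H2BA as a long noncoding RNA. The near-identical gene copies of the HIST2 cluster (HIST2H2AA3, HIST2H2AA4, HIST2H3A, HIST2H3C, HIST2H4A and HIST2H4B) had no row under these symbols in the count table. The class sums below therefore do not include them.

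The stem-loop is the feature that defines this gene family, and its form differed between histone classes. A 16-base stem-loop of the consensus for histone transcripts, with 6 paired bases on each side of a 4-base loop, was searched on the coding strand. It lay within 150 bases after the coding sequence in 53 of 58 histone genes with an annotated coding sequence (91.4%). Of all 19540 protein-coding genes, a set that includes histone genes, 64 had it (0.328%). The GRCh37 sequence of 6 of these histone stem-loops is shown 5′ to 3′, from genes that carry the results below. The stem-loop is in capitals, with 5 flanking bases on each side.
HIST1H3A: gcaaaGGCTCTTTTCAGAGCCaccac
HIST1H2AL: acaacGGCTCTTTTCAGAGCCaccta
HIST1H2BN: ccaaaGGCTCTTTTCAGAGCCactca
HIST1H1T: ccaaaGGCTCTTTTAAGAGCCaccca
HIST1H4D: ccaacGGCCCTTTTCAGGGCCaccta
HIST1H4K: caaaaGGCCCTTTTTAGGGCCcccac
The stem-loop of the first 3, stem and loop together, was the most frequent form, present in 33 genes of classes H1, H2A, H2B and H3. The form shown for HIST1H1T, with the same stem and another loop, was found in 9 genes, among them HIST1H2BC, HIST1H2BD, HIST1H2BJ and HIST1H2BK. The form shown for HIST1H4D was found in 8 genes, all of class H4, and that of HIST1H4K in 2, also of class H4. HIST2H2AC alone had a form of its own. In hg19 the stem-loops of the printed genes with their flanks lay at chr6:26021155-26021180 (HIST1H3A), chr6:27833551-27833576 (HIST1H2AL), chr6:27806863-27806888 (HIST1H2BN), chr6:26107640-26107665 (HIST1H1T, minus strand), chr6:26188938-26188963 (HIST1H4D, minus strand) and chr6:27798951-27798976 (HIST1H4K, minus strand), each at the 3′ end of a single-exon gene, 26 to 51 bases after the coding sequence.

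The promoters also differed by class. In windows from 250 bases before to 50 bases after the annotated start, read on both strands, the octamer ATTTGCAT was found in 13 of 16 H2A and 13 of 18 H2B genes, in none of the H1, H3 and H4 genes, and in 1.58% of all protein-coding genes. CCAAT was found in every H1, H2A, H2B and H3 window examined but in 4 of 11 H4 windows, against 36.0% of all genes. AAACACA was found in 6 of 6 H1 windows, against 4.12% of all genes. For NFI factors, the family to which NFIB belongs, the palindrome (TTGGC, any 5 bases, GCCAA) was found in 0 of 61 histone promoters and in 0.03% of all promoters, and its shorter part TGGCA in 31 of 61 (50.8%), against 42.87%. A match or its absence describes these letters in these windows only.

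The 300 bases around the starts of 3 genes that differed between NFIB ΔIDR and the empty vector are printed below with matches to the octamer and to the other motifs above except the palindrome, on either strand, in capitals (GRCh37, which is hg19; all 3 on the plus strand; HIST1H2AL chr6:27832845-27833144, HIST1H2BN chr6:27806097-27806396, HIST1H3A chr6:26020429-26020728).
HIST1H2AL: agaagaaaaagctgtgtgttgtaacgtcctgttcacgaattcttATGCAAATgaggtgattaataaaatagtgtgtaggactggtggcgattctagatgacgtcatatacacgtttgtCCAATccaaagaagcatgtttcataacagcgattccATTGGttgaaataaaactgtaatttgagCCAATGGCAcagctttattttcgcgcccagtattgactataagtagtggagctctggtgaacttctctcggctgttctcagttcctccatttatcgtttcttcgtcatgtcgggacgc
HIST1H2BN: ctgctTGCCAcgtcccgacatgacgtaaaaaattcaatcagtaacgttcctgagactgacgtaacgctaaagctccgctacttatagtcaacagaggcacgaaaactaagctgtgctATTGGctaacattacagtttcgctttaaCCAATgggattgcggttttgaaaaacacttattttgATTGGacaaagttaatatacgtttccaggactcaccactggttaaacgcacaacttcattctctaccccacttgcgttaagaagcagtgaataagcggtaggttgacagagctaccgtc
HIST1H3A: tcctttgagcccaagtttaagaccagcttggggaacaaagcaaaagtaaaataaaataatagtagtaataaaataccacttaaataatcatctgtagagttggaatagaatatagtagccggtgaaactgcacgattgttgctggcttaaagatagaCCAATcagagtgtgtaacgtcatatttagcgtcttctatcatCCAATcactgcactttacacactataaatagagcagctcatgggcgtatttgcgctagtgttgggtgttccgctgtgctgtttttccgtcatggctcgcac
HIST1H2AL held 3 CCAAT matches, 1 octamer and 1 TGGCA match, the latter overlapping a CCAAT. HIST1H2BN held 3 CCAAT and 1 TGGCA match and no octamer, and HIST1H3A held 2 CCAAT matches and none of the other motifs.

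The libraries held 6664231 to 8465572 counts, so 1 CPM (counts scaled to library size with TMM factors, here and below) stood for 6.68 to 8.38 counts. NFIB itself stood at 175 and 144 CPM in EV, 967 and 1049 CPM in NFIB WT, and 2222 and 2327 CPM in NFIB ΔIDR. Its RNA was thus higher in both NFIB groups than in EV, and higher in NFIB ΔIDR than in NFIB WT. Ewing sarcoma markers summed to 3342 and 3302 CPM in EV, 3877 and 3641 CPM in NFIB WT, and 3252 and 3191 CPM in NFIB ΔIDR. All 11 in the table passed the expression filter. Of these, 2 were higher for NFIB WT against EV, and 3 were higher and 1 lower against NFIB ΔIDR. Endothelial markers summed to 1.80 to 3.74 CPM. Epithelial markers summed to 184 to 339 CPM and haematopoietic markers to 253 to 315 CPM. Fibroblast markers summed to 431 and 446 CPM in EV, 576 and 590 CPM in NFIB WT, and 394 and 402 CPM in NFIB ΔIDR. Of 8 tested, 2 were higher for NFIB WT against EV, and 5 were higher and 1 lower against NFIB ΔIDR. Over all genes tested, 0.452% were higher for NFIB WT against EV, and 5.52% were higher and 5.19% lower against NFIB ΔIDR. The Ewing sarcoma and the fibroblast sums both had the same order of groups as the H3 and H4 sums below. The part of these markers in the histone values was not tested. Over all genes the NFIB WT libraries differed from each other more than the other duplicates did, which touches several results below.

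Histone genes took 0.832% and 0.806% of the counts in EV, 0.888% and 0.937% in NFIB WT, and 0.690% and 0.793% in NFIB ΔIDR. The groups did not overlap, in NFIB WT highest and NFIB ΔIDR lowest. Of the 64 genes, 53 passed the expression filter of edgeR and were tested: 5 H1, 13 H2A, 17 H2B, 9 H3 and 9 H4 genes. The other 11 were HIST1H1A, HIST1H2AA, HIST1H2APS1, HIST1H2BA, HIST1H2BI, HIST1H3I, HIST1H4I, HIST1H4L, HIST2H2BA, HIST3H2A and HIST3H3. Of these 9 had under 10 counts in every library, and 5 genes (HIST1H1A, HIST1H2AA, HIST1H2APS1, HIST1H4L and HIST3H3) had a count of 0 in at least 1 library, which allows up to 3 counts there (0.358 to 0.449 CPM, counting error only). The testis histone genes HIST1H2AA, HIST1H2BA and HIST3H3 were among them, with at most 4 counts in any library. The testis H1 gene HIST1H1T passed.

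Levels differed widely within each class. Per kilobase of the gene length in the table, tested H1 genes ranged from 2.20 (HIST1H1D) to 872 CPM (HIST1H1C), H2A genes from 6.38 (HIST1H2AJ) to 634 CPM (HIST1H2AM), and H2B genes from 2.15 (HIST2H2BC) to 1162 CPM (HIST1H2BC). H3 genes ranged from 4.44 (HIST1H3C) to 928 CPM (HIST1H3B), and H4 genes from 15.1 (HIST1H4A) to 1125 CPM (HIST1H4D). The 10 highest genes gave 51.9% of the summed histone level, and 32 tested genes stood above 100 CPM per kilobase. Between close copies, the share of 50-base windows of a gene that also occur in annotated transcripts of another locus was low in most members (median 1.1%, with 30 genes at none). The rest of the genome was not searched. It was above 50% in 8 genes, among them HIST1H4J (92.1%) and HIST1H4K (92.6%), each shared with the other, and HIST2H3D (78.3%), so values of these depend on how reads that match several places were counted. HIST1H3D and HIST1H2AD have the same deposited start, and reads of these overlapping genes may not have been told apart.

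Summed over a class, the H3 and H4 genes stood highest in both NFIB WT libraries and the H1 genes did not. The H3 genes summed to 1210 and 1196 CPM in EV, 1747 and 1498 CPM in NFIB WT, and 934 and 1075 CPM in NFIB ΔIDR. The H4 genes summed to 1179 and 1091 CPM in EV, 1606 and 1305 CPM in NFIB WT, and 1006 and 1018 CPM in NFIB ΔIDR. In both classes every NFIB WT library stood above every EV library, and every EV library above every NFIB ΔIDR library.

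The H2A genes summed to 2030 and 2000 CPM in EV, 1988 and 2309 CPM in NFIB WT, and 1630 and 1907 CPM in NFIB ΔIDR. The H2B genes summed to 2344 and 2287 CPM in EV, 2415 and 2530 CPM in NFIB WT, and 1994 and 2402 CPM in NFIB ΔIDR. Here the NFIB WT libraries were above the NFIB ΔIDR libraries, but H2A in NFIB WT overlapped EV and H2B in NFIB ΔIDR overlapped EV. The H1 genes summed to 1596 and 1565 CPM in EV, 1096 and 1793 CPM in NFIB WT, and 1242 and 1494 CPM in NFIB ΔIDR, where the NFIB WT libraries spanned all the others. With 2 libraries against 2, an exact permutation test cannot give a p below 0.33, and the sums were not tested.

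**Figure D1:**
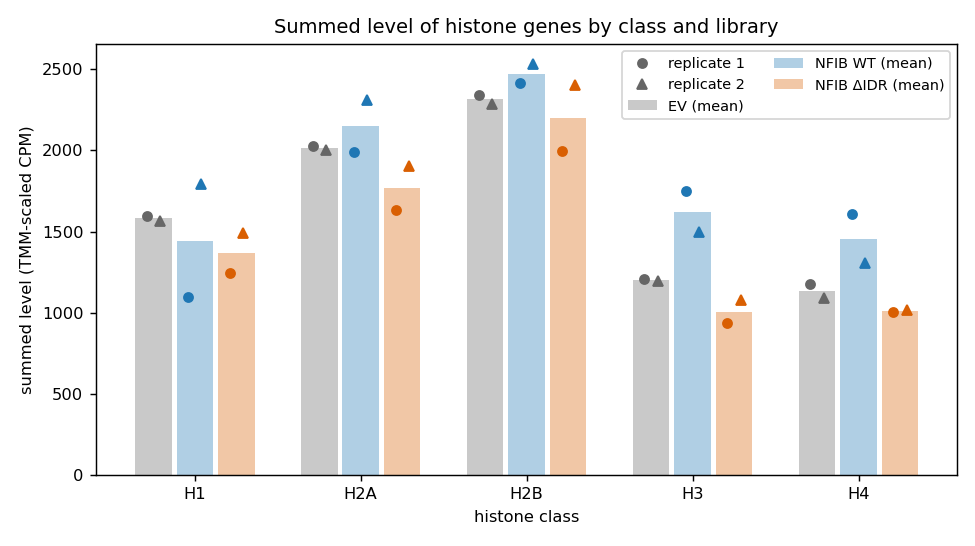
Summed TMM-scaled CPM (y axis) of the histone genes of each class (x axis), with bars at the mean of 2 libraries and points for replicate 1 (circles) and replicate 2 (triangles). The H3 sum was 1747 and 1498 CPM for NFIB WT against 1210 and 1196 CPM in EV, while the H1 sum was 1096 CPM in NFIB WT replicate 1 and 1793 CPM in replicate 2.

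The balance between classes was furthest from the other libraries in NFIB WT replicate 1. The ratio of summed H3 and H4 to summed H2A and H2B was 0.546 and 0.533 in EV, 0.762 and 0.579 in NFIB WT, and 0.535 and 0.486 in NFIB ΔIDR. The ratio of H1 to the core classes was 0.141 in NFIB WT replicate 1 and 0.223 to 0.238 in the other 5 libraries. Both ratios put NFIB WT replicate 1 furthest from the rest, and NFIB WT replicate 2 was above EV for the first ratio only.

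Between the libraries of a group, the histone genes moved by class. In NFIB WT, the log2 ratio of replicate 1 to replicate 2 had a median of -0.62 over the 5 H1 genes, which were all below 0. The median was -0.20 over the 13 H2A genes, -0.05 over the 17 H2B genes, 0.17 over the 9 H3 genes and 0.35 over the 9 H4 genes, against 0 over all 13501 genes tested. Of the H3 and H4 genes, 8 of 9 in each class were above 0, so the H1 genes and the H3 and H4 genes lay on opposite sides.

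In NFIB ΔIDR the shift ran the same way in nearly all classes. The median was -0.20 over the 53 genes, with 8 above 0, and the H4 genes had a median of 0.02. With EV the median was 0.05 and no class median was further from 0 than 0.07. The SD of the ratio over the histone genes was 0.20 in EV, 0.37 in NFIB WT and 0.23 in NFIB ΔIDR, against 0.26, 0.35 and 0.26 over all genes tested. Across the 53 genes the Spearman correlation of the NFIB WT ratio with gene length was -0.35, given as a description, since the genes share the libraries.

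**Figure D2:**
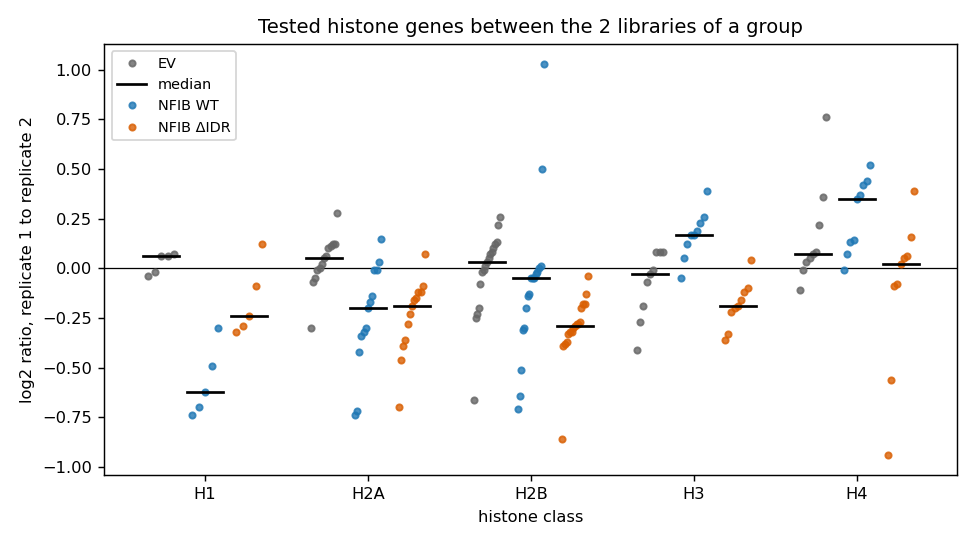
Log2 ratio of replicate 1 to replicate 2 (y axis) for each tested histone gene by class (x axis) and group (colour), with the class median as a black line. In NFIB WT the medians run from -0.62 for H1 to 0.35 for H4, while in EV no class median lies further from 0 than 0.07.

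Other transcripts moved with NFIB WT replicate 1. Structural RNAs without a poly(A) tail, such as RMRP, summed to 3224 CPM in it against 2123 CPM in NFIB WT replicate 2, 1895 and 1822 CPM in EV, and 2138 and 1774 CPM in NFIB ΔIDR. The 30 genes of G2 and mitosis summed to 8206 CPM in it and to 10130 to 10700 CPM in the other 5 libraries. Members of that list differed: MKI67, a proliferation marker, stood at 336 CPM in it and 567 to 746 CPM in the others, while CDK1, the mitotic kinase, stood at 244 CPM in it and 198 to 218 CPM in the others. Their part in the histone values was not tested. Leaving out either NFIB WT library raised the number of histone genes called in the comparisons that use this group, and the share of all genes called, as given beside each count.

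To ask whether wild-type NFIB alters histone transcripts, NFIB WT was compared with EV. None of the 53 genes passed an adjusted p of 0.05 by edgeR's quasi-likelihood test in either direction, where 0.452% of all genes tested passed as higher and 0.163% as lower. At an unadjusted p under 0.05 there were 17 higher and 0 lower histone genes, against 6.93% and 6.42% of all genes, and DESeq2 called 2 higher (HIST1H3D and HIST1H3H) and 0 lower. The median log2 fold change over the 53 genes was 0.17, with 40 above 0, against a median of 0 and 50.8% above 0 over all genes. Of the 53 genes, 31 were higher and 1 (HIST1H1T) lower without overlap between groups, where 21.7% and 21.2% of all genes tested had such an order.

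The H3 and H4 genes were the most alike in this comparison. All 9 H3 genes (median log2 fold change 0.44, range 0.31 to 0.49) and all 9 H4 genes (median 0.43, range 0.22 to 0.67) had values above 0 and no overlap between NFIB WT and EV. The medians were 0.08 for H2A, 0.07 for H2B and -0.12 for H1, with 10 of 13, 11 of 17 and 1 of 5 genes above 0.

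HIST1H3D, an H3 gene, had the smallest adjusted p: it stood at 266 and 271 CPM in EV and 381 and 351 CPM in NFIB WT. Both NFIB WT libraries were higher, with a log2 fold change of 0.45 ± 0.09 (SE) and an edgeR adjusted p of 0.0602. HIST1H3H stood at 175 and 166 CPM in EV and 262 and 218 CPM in NFIB WT (log2 fold change 0.49 ± 0.10, edgeR adjusted p = 0.0718). HIST1H2AC, an H2A gene, stood at 241 and 231 CPM in EV and 309 and 303 CPM in NFIB WT (0.38 ± 0.08, edgeR adjusted p = 0.0767).

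None of these passed the threshold, and the counts depended on the NFIB WT libraries. Without NFIB WT replicate 1, 14 histone genes were called higher (2.11% of all genes), and without NFIB WT replicate 2, 17 higher and 6 lower (10.9% and 11% of all genes). The H1 gene HIST1H1E, at 693 and 701 CPM in EV and 479 and 799 CPM in NFIB WT, had a log2 fold change of -0.12 that became 0.20 without replicate 1 (edgeR adjusted p = 0.0384) and -0.54 without replicate 2 (edgeR adjusted p = 1.15e-14).

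To ask what NFIB without its disordered region does to the same transcripts, NFIB ΔIDR was compared with EV. HIST1H2AL and HIST1H2BN were higher and HIST1H3A was lower, so 2 of 53 genes passed as higher and 1 as lower, where 0.296% and 0.356% of all genes tested passed. This comparison and the preceding one share the EV libraries. At an unadjusted p under 0.05 there were 8 higher and 13 lower, against 7.77% and 7.42% of all genes. Of the 53 genes, 13 were higher and 27 lower without overlap between groups, against 26.1% and 27.2% of all genes tested. The 13 higher were thus near the share over all genes.

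HIST1H2AL, an H2A gene of the third block of HIST1 (chr6:27833095-27833576, plus strand), stood at 30.4 and 27.9 CPM in EV, 22.2 and 29.8 CPM in NFIB WT, and 46.8 and 52.0 CPM in NFIB ΔIDR. NFIB ΔIDR was above both other groups, which overlapped each other, and the log2 fold change from EV was 0.76 ± 0.14 (edgeR adjusted p = 0.039). HIST1H2BN, an H2B gene of the same block (chr6:27806347-27806888, plus strand), stood at 21.7 and 25.5 CPM in EV, 18.9 and 27.1 CPM in NFIB WT, and 40.1 and 43.9 CPM in NFIB ΔIDR. The order was the same, with a log2 fold change from EV of 0.83 ± 0.16 (edgeR adjusted p = 0.0489).

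HIST1H3A, an H3 gene (chr6:26020679-26021186, plus strand), stood at 16.5 and 20.04 CPM in EV, 23.2 and 22.4 CPM in NFIB WT, and 8.37 and 9.42 CPM in NFIB ΔIDR. NFIB ΔIDR was below both other groups and NFIB WT above EV, with a log2 fold change of -1.04 ± 0.16 from EV (edgeR adjusted p = 0.0204). All 3 calls were lost, and no histone gene was called in their place, when any of the 4 libraries of this comparison was left out, where 0.0143% to 0.0215% of all genes were called in a direction. Without either NFIB WT library, which the comparison itself does not use but which enters the estimate of spread, 8 genes were higher and 21 lower, where 6.19% to 6.39% of all genes were higher and 6.89% to 6.99% lower.

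By class, the median log2 fold change from EV was -0.27 for H3, -0.25 for H4, -0.13 for H2A, -0.19 for H1 and 0.07 for H2B. The H3 genes did not share a direction: HIST1H3C, a gene of low level singled out after its values were seen, had 0.953 and 1.43 CPM in EV and 2.83 and 3.68 CPM in NFIB ΔIDR (log2 fold change 1.41 ± 0.36, edgeR adjusted p = 0.105). The H4 genes had 6 of 9 values below 0, from -0.64 to 0.35.

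Most genes of the highest level had values below 0, while genes of lower level were divided. Of the 18 tested genes with the highest level per kilobase (429 to 1162 CPM), 16 had values below 0 for NFIB ΔIDR against EV, with a median of -0.22. Of the 17 with the lowest level (2.15 to 65.7 CPM), 10 had values above 0, with a median of 0.34. Of the 18 between (74.1 to 403 CPM), 8 had values above 0, with a median of -0.04. Over all genes tested, 50.3% were above 0. Across the 53 genes, the Spearman correlation of level with log2 fold change was -0.29 for NFIB ΔIDR against EV, -0.06 for NFIB WT against EV and 0.24 for NFIB WT against NFIB ΔIDR. These describe genes measured in the same libraries, and the last comparison shares libraries with the other 2.

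The direct comparison of NFIB WT with NFIB ΔIDR held most of the calls. These groups differed in the disordered region and also in the level of NFIB RNA. That level in NFIB WT was 0.443-fold the level in NFIB ΔIDR (edgeR adjusted p = 0.000191). The part of the region and the part of the level cannot be told apart here. NFIB WT was higher in 17 of the 53 histone genes (32.1%) and lower in 6 (11.3%), where 5.52% of all genes tested were higher and 5.19% lower. The median log2 fold change was 0.23, with 39 genes above 0, against 0 and 49.9% over all genes. Of the 53 genes, 27 were higher and 8 lower without overlap between groups, against 27.6% and 27.7% of all genes. At an unadjusted p under 0.05 the counts were 23 and 7, against 13.9% and 13.6% of all genes, so the 7 lower were near the share over all genes. DESeq2 called 17 higher and 3 lower, against 3.21% and 2.2% of all genes.

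**Figure D3:**
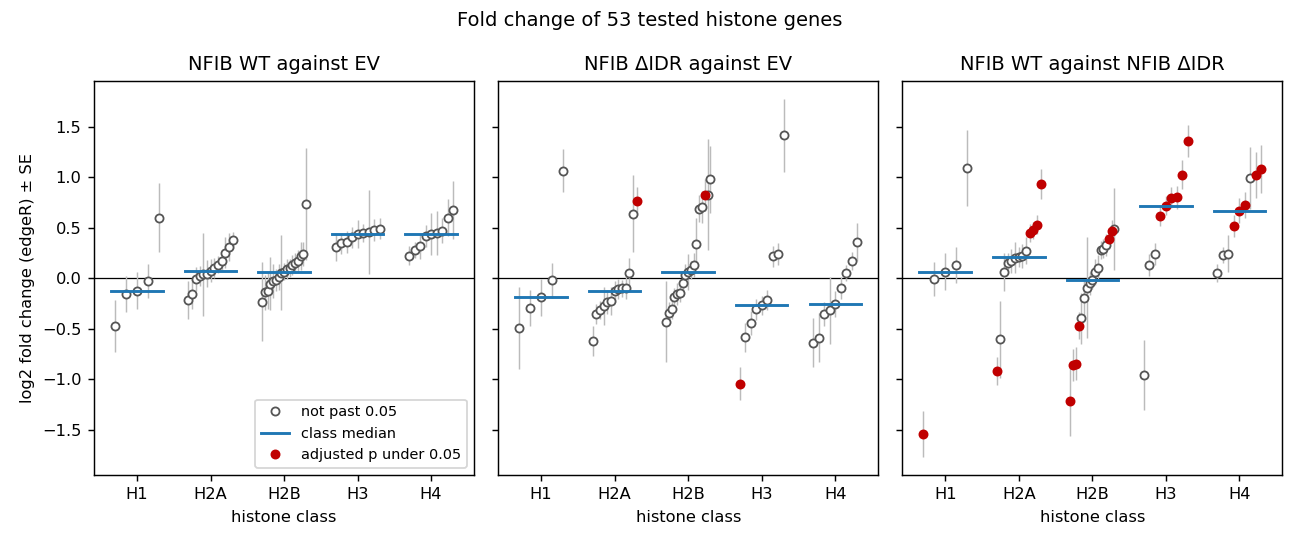
Log2 fold change with its SE (y axis) of the 53 tested histone genes by class (x axis) in the 3 comparisons; red points passed an edgeR adjusted p of 0.05 and blue lines mark class medians. All H3 and H4 genes lie above 0 for NFIB WT against EV, and 6 H3 and 5 H4 genes passed as higher for NFIB WT against NFIB ΔIDR.

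The H3 class had the largest share of its genes called: 6 of 9 were higher and none lower, with a median log2 fold change of 0.72. HIST1H3A, whose values are given above, had the largest rise of the 53 genes in this comparison, 2.56-fold higher in NFIB WT than in NFIB ΔIDR (log2 fold change 1.36 ± 0.16, edgeR adjusted p = 0.00115). HIST1H3J (chr6:27858093-27858604, minus strand) stood at 190 and 191 CPM in EV, 295 and 224 CPM in NFIB WT, and 111 and 143 CPM in NFIB ΔIDR. The 3 groups did not overlap, and NFIB WT was 2.04-fold above NFIB ΔIDR (edgeR adjusted p = 0.00245).

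HIST1H3B, the H3 gene of highest level, stood at 424 and 402 CPM in EV, 590 and 502 CPM in NFIB WT, and 328 and 382 CPM in NFIB ΔIDR. It was 1.54-fold higher in NFIB WT than in NFIB ΔIDR (edgeR adjusted p = 0.00522), in EV between them. HIST1H3D, at 207 and 238 CPM in NFIB ΔIDR, was 1.64-fold higher in NFIB WT (edgeR adjusted p = 0.00159). HIST1H3H, at 132 and 143 CPM in NFIB ΔIDR, was 1.74-fold higher (edgeR adjusted p = 0.00172).

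HIST2H3D of the chromosome 1 cluster stood at 37.7 and 35.7 CPM in EV, 50.3 and 43.96 CPM in NFIB WT, and 26.0 and 28.0 CPM in NFIB ΔIDR. Its groups followed the same order, with a log2 fold change of 0.80 ± 0.12 between NFIB WT and NFIB ΔIDR (edgeR adjusted p = 0.00319). It was the only gene called outside the HIST1 cluster in any of the 3 comparisons. Of the other H3 genes, HIST1H3F and HIST1H3G had log2 fold changes of 0.24 and 0.13 and did not pass, and HIST1H3C had -0.96 (edgeR adjusted p = 0.101).

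Of the H4 genes 5 of 9 were higher and none lower, with a median log2 fold change of 0.67 and all 9 above 0. HIST1H4D (chr6:26188938-26189340, minus strand), the H4 gene of highest level, stood at 441 and 378 CPM in EV, 574 and 445 CPM in NFIB WT, and 310 and 330 CPM in NFIB ΔIDR. It was 1.59-fold higher in NFIB WT than in NFIB ΔIDR (edgeR adjusted p = 0.0077), and the groups did not overlap. HIST1H4B stood at 177 and 178 CPM in EV, 283 and 209 CPM in NFIB WT, and 152 and 146 CPM in NFIB ΔIDR (1.65-fold, edgeR adjusted p = 0.00679).

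Both H4 genes were highest in NFIB WT replicate 1. The other H4 genes that passed were HIST1H4H (log2 fold change 0.52), HIST1H4J (1.02) and HIST1H4K (1.09), of which the last 2 share nearly all of their sequence. HIST1H4A, at 3.58 to 9.43 CPM over the 6 libraries, had 0.99 ± 0.31 and did not pass (edgeR adjusted p = 0.0646), nor did HIST1H4C and HIST1H4E, with 0.05 and 0.23.

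Of the H2A genes, HIST1H2AB, HIST1H2AC, HIST1H2AD and HIST1H2AE were higher and HIST1H2AL was lower. HIST1H2AD stood at 16.1 and 14.8 CPM in EV, 20.2 and 18.1 CPM in NFIB WT, and 10.3 and 9.72 CPM in NFIB ΔIDR. Its groups did not overlap (NFIB WT 1.91-fold above NFIB ΔIDR, edgeR adjusted p = 0.00425), and it overlaps HIST1H3D, which had the same order. HIST1H2AC, at 211 and 229 CPM in NFIB ΔIDR, was 1.39-fold higher in NFIB WT (edgeR adjusted p = 0.00679). HIST1H2AL was lower in NFIB WT than in NFIB ΔIDR by a log2 fold change of -0.92 ± 0.14 (edgeR adjusted p = 0.00385). HIST1H2AM, the H2A gene of highest level, stood at 326 and 325 CPM in EV, 288 and 359 CPM in NFIB WT, and 250 and 305 CPM in NFIB ΔIDR, where the NFIB WT libraries overlapped both other groups (edgeR adjusted p = 0.255).

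The H2B genes were divided, with 2 higher, 4 lower and a median of -0.02. HIST1H2BC, the histone gene of highest level per kilobase, stood at 529 and 533 CPM in EV, 565 and 566 CPM in NFIB WT, and 382 and 480 CPM in NFIB ΔIDR. It was 1.31-fold higher in NFIB WT than in NFIB ΔIDR (edgeR adjusted p = 0.0345), and HIST1H2BG was 1.38-fold higher (edgeR adjusted p = 0.0176). The 4 lower genes were HIST1H2BE, HIST1H2BH, HIST1H2BM and HIST1H2BN.

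HIST1H2BE stood at 9.67 and 8.23 CPM in EV, 7.63 and 8.48 CPM in NFIB WT, and 14.3 and 14.7 CPM in NFIB ΔIDR. EV and NFIB WT overlapped and NFIB ΔIDR was above both (log2 ratio of NFIB WT to NFIB ΔIDR -0.84 ± 0.17, edgeR adjusted p = 0.0112). HIST1H2BH stood at 48.8 and 47.2 CPM in EV, 51.9 and 59.6 CPM in NFIB WT, and 66.8 and 87.9 CPM in NFIB ΔIDR, with both NFIB groups above EV (log2 ratio of NFIB WT to NFIB ΔIDR -0.47 ± 0.13, edgeR adjusted p = 0.0495). HIST1H2BM, at 1.63 and 2.86 CPM in EV, 2.395 and 1.54 CPM in NFIB WT, and 4.05 and 5.01 CPM in NFIB ΔIDR, passed barely at a low level (edgeR adjusted p = 0.0499).

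HIST1H1T, the testis H1 gene (chr6:26107640-26108363, minus strand), was the H1 gene that passed, and had the largest fall of any histone gene in this comparison. It stood at 4.63 and 4.77 CPM in EV, 2.69 and 3.99 CPM in NFIB WT, and 10.3 and 9.42 CPM in NFIB ΔIDR. NFIB ΔIDR was highest and NFIB WT lowest with no overlap (log2 ratio of NFIB WT to NFIB ΔIDR -1.54 ± 0.23, edgeR adjusted p = 0.0034). Against EV, NFIB ΔIDR was higher by 1.06 ± 0.21 on the log2 scale, which did not pass (edgeR adjusted p = 0.0532). HIST1H1C and HIST1H1E, H1 genes of high level, had log2 fold changes of 0.13 and 0.07 (edgeR adjusted p = 0.668 and 0.847).

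In all 6 genes that were lower in NFIB WT, both NFIB ΔIDR libraries were above both EV libraries. In the 17 that were higher, both NFIB ΔIDR libraries were below both EV libraries and both NFIB WT libraries were above them. These genes were chosen by the difference between the same NFIB libraries, which favours such an order. How often all genes called in this comparison had it was not counted. The 6 lower genes had levels of 6.54 to 142 CPM per kilobase, and the 17 higher ones 27.4 to 1162 CPM per kilobase. Among the 18 genes of highest level, 9 were higher in NFIB WT and none lower, and among the 17 of lowest level 4 were higher and 4 lower.

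**Figure D4:**
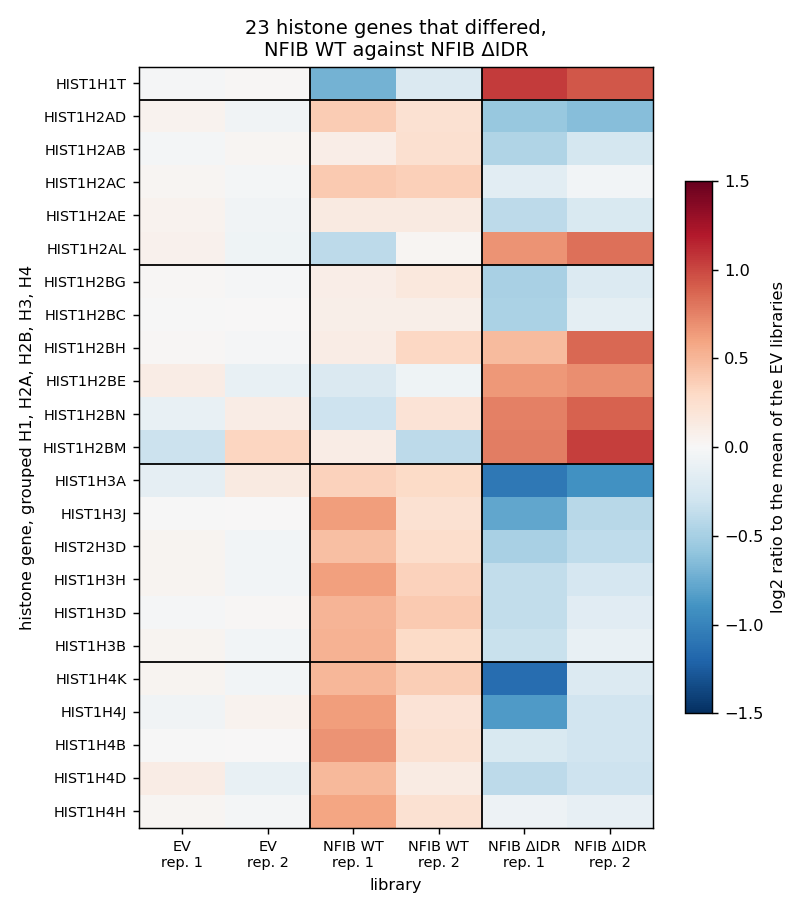
Log2 ratio of each library to the mean of the EV libraries (colour, TMM-scaled CPM with 0.5 added) for the 23 histone genes that differed between NFIB WT and NFIB ΔIDR (rows, by class) in the 6 libraries (columns). Values run from -1.14 to 1.05. The 6 genes lower in NFIB WT are red in both NFIB ΔIDR libraries, and the 17 others are blue there. The genes were chosen by the difference between these same NFIB libraries.

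These calls depended on the NFIB ΔIDR libraries. Without NFIB ΔIDR replicate 1, 1 of the 23 calls remained (0.498% of all genes higher), and without NFIB ΔIDR replicate 2, 6 remained (0.481% of all genes higher). Without NFIB WT replicate 1 all 23 remained, with 29 higher and 6 lower in all (9.17% and 8.28% of all genes). Without NFIB WT replicate 2, 22 remained, with 23 higher and 10 lower in all (16% and 15.6% of all genes), so the lower count was near the share over all genes. No call changed direction in any of these fits.

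By position, the calls were spread along the HIST1 cluster. The first block of HIST1, 32 genes with deposited start windows that begin between positions 25726790 and 26285727 of chromosome 6, had 27 tested genes, of which 12 were higher and 3 lower for NFIB WT against NFIB ΔIDR (median log2 fold change 0.39). The third block, 16 genes with 14 tested, had 4 higher and 3 lower (median 0.21), and the second, 5 genes with 4 tested, had none called (median 0.16). The HIST2 cluster had 1 higher of 6 tested. HIST4H4, the lone H4 gene of chromosome 12, stood at 12.7 and 9.78 CPM in EV, 17.8 and 16.1 CPM in NFIB WT, and 16.2 and 12.2 CPM in NFIB ΔIDR and did not pass in any comparison.

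Neighbouring H2A and H2B genes did not always move together. There were 12 pairs of an H2A and an H2B gene whose starts lay within 500 bases of each other, and both were tested in 10. The signs of the log2 fold changes matched within 8 pairs for NFIB WT against EV, 7 for NFIB ΔIDR against EV and 7 for NFIB WT against NFIB ΔIDR. The pair HIST1H2AK and HIST1H2BN differed most: HIST1H2AK had 45.8 and 37.7 CPM in EV, 49.5 and 49.7 CPM in NFIB WT, and 36.3 and 50.1 CPM in NFIB ΔIDR. Its NFIB WT libraries were above EV, and its NFIB ΔIDR libraries overlapped both other groups. The log2 ratio of NFIB WT to NFIB ΔIDR was 0.20 for HIST1H2AK and -0.86 for HIST1H2BN. HIST1H2AE and HIST1H2BG had 0.45 and 0.47, and HIST1H2AJ and HIST1H2BM had -0.60 and -1.21.

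The promoter motifs described above were set beside the calls, with no test. Of the 21 tested H2A and H2B genes with the octamer, 5 were higher and 4 lower for NFIB WT against NFIB ΔIDR, and of the 7 without it 0 and 1. Of the 25 tested genes with TGGCA in the promoter window, 6 were higher and 5 lower (median 0.17), and of the 25 without it 9 and 1 (median 0.23). HIST1H3D, HIST1H2BF and HIST1H2BG had no matched annotation and are in neither count. Of the 23 tested genes with no sequence window shared with an annotated transcript of another locus, 8 were higher and 3 lower.

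Histone genes that are also known to give polyadenylated mRNA were set apart, since their RNA need not end at the stem-loop. Of 7 such genes (HIST1H1C, HIST1H2AC, HIST1H2BC, HIST1H2BD, HIST1H2BJ, HIST1H2BK and HIST2H2BE), 2 were higher for NFIB WT against NFIB ΔIDR, 0 were lower and the median was 0.13. HIST1H2BD had 447 and 418 CPM in EV, 446 and 460 CPM in NFIB WT, and 429 and 487 CPM in NFIB ΔIDR. HIST2H2BE had 88.1 and 81.2 CPM in EV, 60.2 and 94.2 CPM in NFIB WT, and 78.8 and 98.4 CPM in NFIB ΔIDR. Groups overlapped in both genes.

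The factors that make and process histone RNA were examined next, and their counts stand beside 5.52% higher and 5.19% lower over all genes. Of 16 genes for histone mRNA processing, 0 were higher and 2 lower for NFIB WT against NFIB ΔIDR: ZCCHC6 (log2 fold change -0.54 ± 0.11, edgeR adjusted p = 0.0132) and ZCCHC11 (-0.45 ± 0.10, edgeR adjusted p = 0.0168), uridylyltransferases that add U to RNA 3′ ends. SLBP stood at 185 and 190 CPM in EV, 173 and 176 CPM in NFIB WT, and 172 and 179 CPM in NFIB ΔIDR, with the NFIB groups overlapping (edgeR adjusted p = 0.956). Of 11 genes for histone gene transcription, CCNE2, a cyclin E, was higher (0.36 ± 0.09, edgeR adjusted p = 0.0306) and NPAT was lower (-0.39 ± 0.10, edgeR adjusted p = 0.028).

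Of 22 histone chaperone genes, TONSL, which binds new histones at replication forks, was higher (log2 fold change 0.41 ± 0.12, edgeR adjusted p = 0.0464) and none lower. Of 10 tested genes listed as replication-independent histones, whose RNA is as a rule polyadenylated (H2AFX, which also gives a stem-loop transcript, is among them), H1F0 was the single call: it stood at 229 and 223 CPM in EV, 192 and 213 CPM in NFIB WT, and 143 and 138 CPM in NFIB ΔIDR. It was lowest in NFIB ΔIDR without overlap, both against NFIB WT (log2 ratio of NFIB WT to NFIB ΔIDR 0.53 ± 0.09, edgeR adjusted p = 0.00538) and against EV (-0.69 ± 0.09, edgeR adjusted p = 0.0105). It was the only gene of these 4 lists called against EV in either NFIB group.

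Of 40 genes of S phase and DNA replication, CCNE2 and CDCA7 were higher and HELLS lower for NFIB WT against NFIB ΔIDR, and the median was 0.01. The medians against EV were -0.03 in NFIB WT and -0.06 in NFIB ΔIDR, with 0 called in each. Of 30 genes of G2 and mitosis, 0 were higher and 2 lower, MKI67 and CKAP2, with a median of -0.04, and of 16 genes of cell cycle arrest SESN1 was higher (0.66 ± 0.13) and GADD45A lower (-0.90 ± 0.26). Of 13 structural RNAs without a poly(A) tail, RMRP was higher (0.78 ± 0.21, edgeR adjusted p = 0.0387), with a median of 0.48 for NFIB WT against NFIB ΔIDR, 0.51 for NFIB WT against EV and 0.05 for NFIB ΔIDR against EV. Their part in the histone values was not tested.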

How the data were processed

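RNA-seq libraries of SKNMC total RNA were prepared with the CORALL kit. The authors deposited raw counts per RefSeq gene without normalization, made with CASAVA 2.19, STAR 2.4.0h (hg19) and featureCounts, per the labels and the submitters' processing notes. Handling of strand, of multi-mapping reads and of molecular identifiers was not given in the sources used here. Counts were filtered with filterByExpr (at least 10 counts, total of 15), TMM-scaled, and tested over 13501 genes with edgeR 4.0.16 (quasi-likelihood, 1 mean per group, all 6 libraries, Benjamini-Hochberg, threshold 0.05) in R 4.3.3. DESeq2 1.42.0 was an alternative, as were other scaling, filters, thresholds, fits of 2 groups, a replicate block and leaving out each library. Gene positions, stem-loops and promoters were read from GRCh37 with GENCODE, which matched 61 of 64 genes; the deposited starts are windows. Blocks of HIST1 were split at long gaps between starts. The steps were tested on simulated data. Genes named with values were, in each contrast, up to 10 called genes with the smallest p and every gene called lower, the highest gene of each class, and the lists of testis genes and of genes with polyadenylated mRNA; further names were chosen after values were seen. Members and lists were chosen with earlier results of these data known. Figures used matplotlib 3.10.9.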

Additional observations from a re-analysis of the deposited data

How the results depend on the processing

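With 2 libraries per group, the counts of called histone genes moved with the library left out more than with the scaling or the filter, and so did the share of all genes called, which is given in parentheses after each count. For NFIB WT against EV, with 0 called in the reported fit, 2 were higher by DESeq2 (0.432%), 10 without a filter (1.24%) and 2 at a fold of 1.5 with an unadjusted p under 0.05 (2.13%); leaving out each library gave 0 to 17 higher (0.0573% to 10.9%) and 0 to 6 lower (0.00716% to 11%). For NFIB ΔIDR against EV, with 2 higher and 1 lower, library totals alone gave 4 higher (0.378%), no filter 6 higher (1.22%) and 11 lower (1.21%), the stricter filter 1 higher (0.246%), DESeq2 2 lower (0.59%), only the 2 groups compared 8 higher (6.85%) and 21 lower (7.32%), and the fold of 1.5 with an unadjusted p 7 higher (3.09%) and 4 lower (1.68%); leaving out each library gave 0 to 8 higher (0.0143% to 6.39%) and 0 to 21 lower (0.0143% to 6.99%). For NFIB WT against NFIB ΔIDR, with 17 higher and 6 lower, DESeq2 gave 3 lower (2.2%), and leaving out each library gave 1 to 29 higher (0.481% to 16%), 0 to 10 lower (0.302% to 15.6%) and a median log2 fold change of 0.15 to 0.34. In these fits the lone library of a group is assumed to vary like the other groups. In this comparison HIST1H1C ran from -0.26 (without NFIB WT replicate 2) to 0.45 (without replicate 1) and HIST1H1E from -0.35 to 0.39; against EV, HIST1H1E ran from -0.54 to 0.20. The cause of these changes was not tested.

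The labels number the libraries but do not pair them. Same-numbered libraries deviated together with correlations of 0.165 (EV and NFIB WT), 0.019 (EV and NFIB ΔIDR) and 0.061 (NFIB WT and NFIB ΔIDR) over all genes, and 0.213, 0.382 and 0.289 over the 53 histone genes. A fit with the replicate number as a block called 3 higher for NFIB WT against EV (0.933%), 4 higher (0.889%) and 2 lower (0.896%) for NFIB ΔIDR against EV, and 21 higher (7.73%) and 6 lower (7.76%) for NFIB WT against NFIB ΔIDR, where all 23 calls of the reported fit remained. Of the 23, 20 remained with DESeq2, 18 with only the 2 groups compared, 22 with the stricter filter and 23 with no filter and with either other scaling.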
